A study of Mus musculus with 10 samples.

Results

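GABA-A receptor subunits are the proteins that assemble into the chloride channel opened by the inhibitory transmitter GABA. The genes described here are Gabra2, Gabra3, Gabra4 and Gabra5, which encode the alpha2 to alpha5 subunits, Gabrb1 and Gabrb2, which encode beta1 and beta2, and Gabrd, which encodes delta. They were taken by symbol and all 7 were found among the 32531 gene rows of the count files. Their transcripts were measured by translating ribosome affinity purification with sequencing (TRAP-seq), a method that tags ribosomes in a chosen cell class, pulls them down and sequences the RNA they hold.

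The mice were adult Drd1-TRAP CP73 animals. In this line the Drd1 promoter drives a ribosomal protein fused to EGFP, which marks cells with dopamine D1 receptors. In the striatum these are chiefly direct-pathway medium spiny neurons. The strain was of FVB/N-Swiss Webster x C57BL/6 origin and had been bred onto C57BL/6 for at least 9 generations. Polysomes were captured from the whole striatum after short-access intravenous self-administration of saline or of cocaine, or from a yoked control, with 3 libraries in each group. A further library was made from input RNA of whole striatum of the same genotype. The sources used here do not give what the yoked mice received, how the animals behind the input were treated, or whether each library came from its own animals. Adjusted p-values therefore measure the spread between these libraries, which may be technical. Libraries are named by group and number (yoked 3, for example).

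GABA-A receptors usually combine alpha subunits, beta subunits and either a gamma or a delta subunit. Receptors with alpha2 or alpha3 and a gamma subunit serve mainly at synapses. Receptors with alpha4 and delta, and many with alpha5, lie mainly outside synapses and carry a tonic current at low GABA. Medium spiny neurons are themselves GABAergic and receive GABA from one another and from interneurons. The RNA of a subunit is measured here, not its protein or its place in a receptor.

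Gabra2, Gabra4 and Gabrb1 lie on chromosome 5 of GRCm38.p6, the build that the reference table shares with the mm10 alignments, at 70958392 to 71095849, 71569734 to 71658308 and 71657921 to 72149572. Gabra4 and Gabrb1 are transcribed away from each other and their annotated 5′ ends overlap by 388 bases. The strand setting of the counting is not given in the sources used here, so reads from this overlap cannot be assigned to 1 gene with certainty. Gabra5 is on chromosome 7 (57407669 to 57591016), Gabrb2 on chromosome 11 (42419515 to 42632591), Gabra3 on chromosome X (72432676 to 72656919) and Gabrd on chromosome 4 (155384979 to 155398098).

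Upstream sequences are shown for 3 alpha subunit genes that stood apart from one another in the pull-downs: Gabra3 was the most depleted of the 7 genes, Gabra5 the most enriched alpha, and Gabra2 the most variable between libraries. Each is the 250 bases before an annotated transcript start, from RefSeq on GRCm38.p6, on the minus strand, with each CG dinucleotide in capitals. The positions are chr5:71095850-71096099 for Gabra2, chrX:72656920-72657169 for Gabra3 and chr7:57510060-57510309 for Gabra5, whose listed start lies inside the gene.
Gabra2: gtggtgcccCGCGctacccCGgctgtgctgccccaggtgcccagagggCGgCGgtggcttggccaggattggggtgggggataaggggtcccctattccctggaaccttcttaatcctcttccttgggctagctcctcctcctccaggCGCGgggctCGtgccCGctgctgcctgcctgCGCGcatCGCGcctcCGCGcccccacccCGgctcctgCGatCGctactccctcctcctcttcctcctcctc
Gabra3: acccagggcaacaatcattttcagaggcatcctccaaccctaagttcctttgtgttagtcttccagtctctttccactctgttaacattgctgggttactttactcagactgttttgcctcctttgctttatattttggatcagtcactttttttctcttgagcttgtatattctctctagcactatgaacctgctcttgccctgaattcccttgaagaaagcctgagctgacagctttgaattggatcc
Gabra5: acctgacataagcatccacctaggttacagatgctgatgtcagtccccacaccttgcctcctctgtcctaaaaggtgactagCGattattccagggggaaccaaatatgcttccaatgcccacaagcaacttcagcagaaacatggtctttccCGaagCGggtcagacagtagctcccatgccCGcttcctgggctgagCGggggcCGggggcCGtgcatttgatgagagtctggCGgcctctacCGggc

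The Gabra2 stretch held 18 CG dinucleotides and the Gabra5 stretch 9, whereas that of Gabra3 held 0. The median of all 32851 RefSeq stretches of this length was 6. A total of 10 such stretches were listed for 6 of the 7 genes, with Gabrd not among them. Of the 10, 2 held no CG, both of Gabra3 and overlapping each other, beside 7.87% of all stretches. The cAMP response element TGACGTCA, searched on both strands, was in 0 of the 10 and in 1.55% of all stretches. TATAAA, on either strand, was in both Gabra3 stretches and in 1 of the 3 Gabrb2 stretches, and in 12.4% of all. The match in the Gabra3 stretch shown lies in the part that both share, so it is the same site. These matches describe letters in these windows only.

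The libraries held 12.5 to 45.2 times 1e+06 gene counts, with all 3 saline libraries below all cocaine and yoked ones. Each group was sequenced in its own lane, and the effects of lane and group cannot be told apart. The label of the captured cells was checked on markers. All 7 D1 medium spiny neuron markers found were above the input, with a median of 2.27 times the input. All 6 D2 medium spiny neuron markers were below it (median 0.154 times), as were all 6 astrocyte (0.172) and all 6 oligodendrocyte markers (0.140). Of the 10 interneuron markers 1 was above the input (median 0.245 times), and of the 7 cortical glutamatergic markers 5 were (median 1.87 times). Yoked 3 held the highest value of 4 of the 7 receptor genes, and group differences of these genes are given with and without it where it moved them. By Dixon's criterion on the 9 pull-downs (gap to the nearest library over the whole range), 0 of 19 ratios and shares held an outlier. The ratio of Gabrb2 to the input gave the largest value for yoked 3, 0.474, below the critical value.

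Levels are given in counts per 1e+06 gene counts (CPM). No transcript lengths were at hand, so levels are compared between libraries and not between genes. The 7 genes were well covered: the lowest count of any of them in a pull-down was 127, for Gabra3 in saline 2. The delta subunit gene Gabrd stood at 71.7, 53.8 and 67.0 CPM in saline 1, 2 and 3, at 60.2, 57.2 and 82.1 CPM in cocaine 1, 2 and 3 and at 56.3, 48.9 and 58.1 CPM in yoked 1, 2 and 3. Cocaine 3 was the highest and yoked 2 the lowest, and the 3 groups overlapped. The input held 23.6 CPM, below each pull-down.

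Gabra4, which encodes the alpha subunit that commonly pairs with delta, stood at 209.8, 191 and 230 CPM in the saline, 203, 168 and 197 CPM in the cocaine and 181, 159.5 and 310.1 CPM in the yoked libraries. Yoked 3 was above all others, while yoked 1 and yoked 2 were below every saline library. Its input level of 196 CPM lay within the range of the pull-downs.

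Gabra5 was at 43.4, 40.9 and 55.0 CPM in saline, 44.7, 42.2 and 51.3 CPM in cocaine and 40.2, 31.8 and 59.6 CPM in yoked libraries. Yoked 3 was again the highest and yoked 2 the lowest, so that the yoked group spanned both other groups. All 9 were above the 25.9 CPM of the input.

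Gabra2, of the mainly synaptic alpha subunits, was the most variable of the 7. It stood at 44, 33.4 and 55.3 CPM in saline, 51.5, 24.8 and 44.5 CPM in cocaine and 38.3, 32.4 and 76.2 CPM in yoked libraries. The highest level, in yoked 3, was 3.08 times the lowest, in cocaine 2, and within groups the spread (SD 0.56 on the log2 scale) was larger than for any other of the 7 genes. The input held 53.4 CPM.

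Gabra3 was at 8.10, 10.1 and 7.10 CPM in saline, 7.33, 7.45 and 11.8 CPM in cocaine and 10.6, 7.92 and 10.3 CPM in yoked libraries. No group stood apart, and each pull-down was far below the input at 29.4 CPM.

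Of the beta subunit genes, Gabrb1 was at 20.7, 23.1 and 21.2 CPM in saline, 18.6, 18.3 and 17.2 CPM in cocaine and 21.7, 25.9 and 14.7 CPM in yoked libraries. All cocaine libraries were below all saline libraries, and the yoked group held both the highest and the lowest value. Gabrb2 was at 192, 184 and 206 CPM in saline, 208, 145 and 165 CPM in cocaine and 181, 173 and 289 CPM in yoked libraries, with yoked 3 the highest. The input was at 27.9 CPM for Gabrb1 and 277 CPM for Gabrb2.

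**Figure D1:**
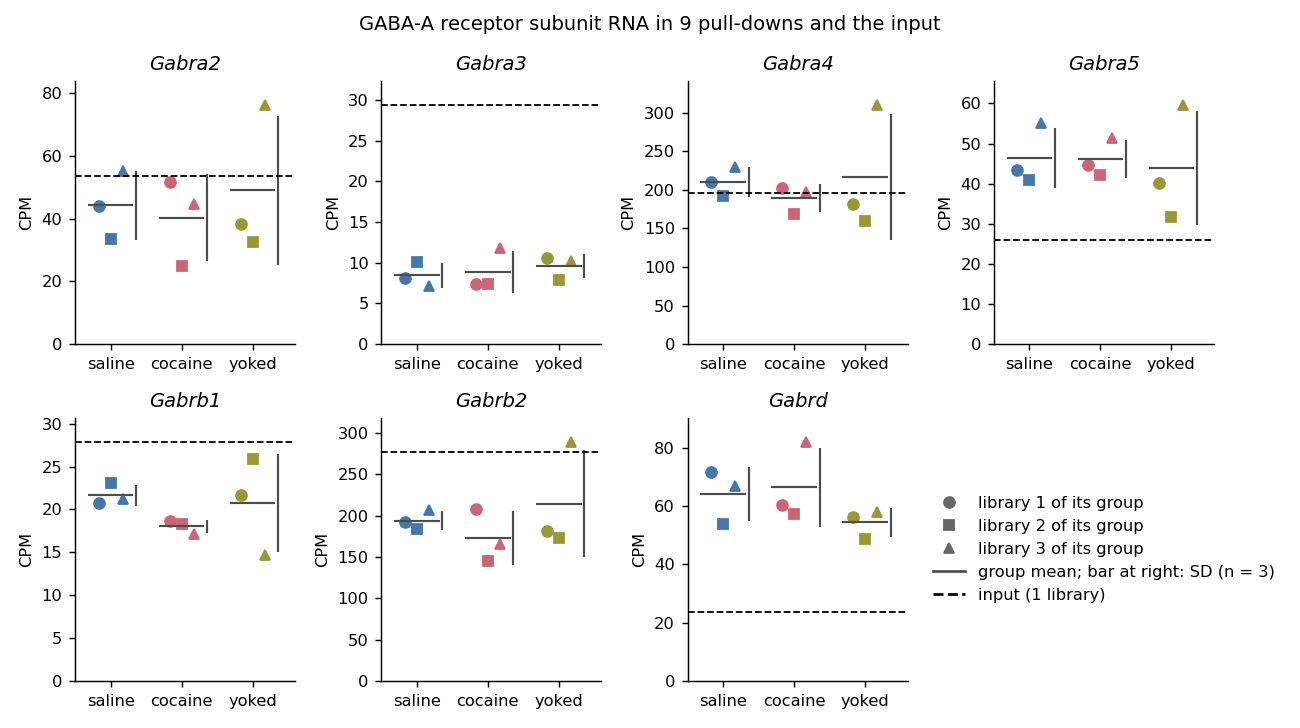
Level of each of the 7 genes in CPM (vertical axis, from 0) by group (horizontal axis), with 1 point for each pull-down, the group mean as a horizontal line, the SD (n = 3) as a bar beside it and the input as a dashed line. All pull-downs lie above the input for Gabra5 and Gabrd and below it for Gabra3 and Gabrb1, and yoked 3 (olive triangle) is the highest point for Gabra2, Gabra4, Gabra5 and Gabrb2.

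The comparison of the pull-downs with the input asked which subunit RNAs were enriched on the ribosomes of D1 receptor-expressing cells. With 1 input library it has no test. Values are log2 ratios of CPM + 0.5, with the SD over the 9 pull-downs. Gabrd and Gabra5 were above the input in all 9, and Gabra3 and Gabrb1 below it in all 9. Over the 11896 genes with a mean of at least 50 counts, 34% were above the input in all 9 pull-downs and 28.5% below it in all 9, so that these counts of 2 and 2 among 7 are near the background.

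Gabrd was the most enriched, at a log2 ratio of 1.35 ± 0.23 (SD, n = 9), or 2.55 times the input. Its range was 2.05 to 3.43 times. This places Gabrd at percentile 96.2 of the genes compared. Among those genes 9.28% were at least 2-fold above the input on average. Gabra5 followed at 0.78 ± 0.27 (1.72 times, percentile 84.7).

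Gabra4 was at the input level, with a log2 ratio of 0.04 ± 0.28, and stood above the input in 5 pull-downs and below it in 4. The median over all genes compared was 0.08. Gabra2 was at -0.33 ± 0.47, above the input in yoked 3 and saline 3 and below it in the other 7.

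Both beta genes were lower, with log2 ratios of -0.48 ± 0.24 for Gabrb1 and -0.54 ± 0.28 for Gabrb2. Gabrb2 was above the input in yoked 3, at 1.05 times, and below it in the other 8. Gabra3 was the most depleted, at -1.68 ± 0.26, or 3.20-fold lower than the input, at percentile 4.52. Among the genes compared 10.9% were at least 2-fold below the input.

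Most of this order held within each library. Gabrd was above Gabra5, Gabra5 above Gabra4 and Gabra4 above Gabra2 in 9 of 9 pull-downs, and Gabrb2 was above Gabra3 in 9 of 9. Gabra2 and Gabrb1 could not be ordered, with Gabra2 higher in 5 of 9, nor could Gabrb1 and Gabrb2, which differed by 0.06 ± 0.44. All ratios depend on the scaling between 2 kinds of library. Scaling by TMM over the 10 libraries moved the median of all genes from 0.08 to 0.27, and Gabrb1 was then above the input in 1 of 9 pull-downs. Relative to that median the 7 values moved little: Gabrd was at 1.27 above it with library totals and 1.28 with TMM, and Gabra3 at -1.76 and -1.75.

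**Figure D2:**
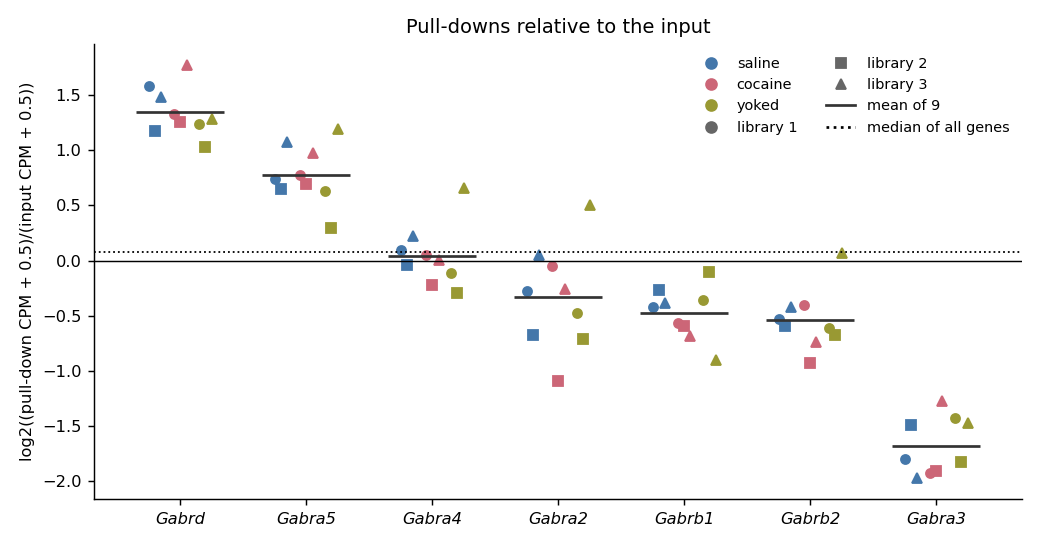
Log2 ratio of each pull-down to the input (vertical axis) for the 7 genes, ordered by their mean, with 1 point for each of the 9 libraries, a solid bar for their mean and a dotted line at the median of all genes, 0.08. Gabrd and Gabra5 lie above 0 and Gabrb1 and Gabra3 below it in every library. Yoked 3 is the highest point for Gabra2, Gabra4, Gabra5 and Gabrb2, without being an outlier by Dixon's criterion.

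Depleted genes of other cells were not absent from the pull-downs. The summed level of 5 cholinergic interneuron markers was 6.11 to 89.5 CPM in saline, 3.92 to 13.4 in cocaine and 3.43 to 30.6 in yoked libraries, against 68.9 in the input. The 10 interneuron markers summed to 30.5 to 50.4, 37.4 to 44.3 and 28.1 to 72.5 CPM in the same groups, against 198 in the input, and no marker of either list was at 0. The part of such RNA in the levels of Gabra3, Gabrb1 and Gabrb2 was not tested. In such bulk samples fewer cells of a type and less RNA per cell cannot be told apart.

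Among the other subunit genes of the family, Gabrg1 and Gabrg3, which encode gamma subunits, were below the input in 9 of 9 pull-downs. Gabrg3 averaged 28.4 ± 3.98 CPM (SD, n = 9) against 40.1 CPM in the input, and Gabrg1 averaged 5.02 ± 1.80 CPM against 11.6 CPM.

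Proportions among the subunits were taken as shares of the summed counts of the 7 genes. A longer transcript gives more counts, so a share can be compared between libraries but does not rank the genes. Gabrd made up 10.8% ± 2.02 of the sum over the pull-downs (SD, n = 9; range 7.10% to 14.4%). The input value was 3.73%, with a 95% Wilson interval of 3.51% to 3.97%. Gabra5 made up 7.86% ± 0.85 against 4.09% in the input, and Gabra4 35.3% ± 1.38 against 31.0%. All 9 pull-downs were above the input for these 3 genes. Each share also depends on the other genes in the sum. In CPM, Gabra4 was at the input level (log2 ratio 0.04 ± 0.28), above it in 5 pull-downs and below it in 4.

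Gabrb2 made up 33.3% ± 2.28 of the sum against 43.7% in the input, and Gabra3 1.58% ± 0.36 against 4.64%. All 9 pull-downs were below the input for both. The share of Gabra2 (7.50% ± 1.27 against 8.44%) was above the input in 3 pull-downs, and that of Gabrb1 (3.62% ± 1.0 against 4.41%) in 1. Intervals on the input cover counting error only.

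Pairs of subunits showed the same contrast. Gabrd counts, as a percentage of Gabra4 counts, were 28.1% to 34.2% in the saline, 29.7% to 41.6% in the cocaine and 18.7% to 31.1% in the yoked libraries, against 12% in the input. Cocaine 3 had the most and yoked 3 the least. Gabra3 counts ranged from 12.9% of Gabra5 counts in saline 3 to 26.4% in yoked 1, whereas in the input they were 114%. Within the 4 alpha genes, Gabra5 took 15.0% ± 1.41 against 8.48% in the input, and Gabra3 3.03% ± 0.73 against 9.63%. Gabrb1 took 9.75% ± 2.31 of the counts of the 2 beta genes, from 4.82% in yoked 3 to 13.0% in yoked 2, and 9.17% in the input.

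**Figure D3:**
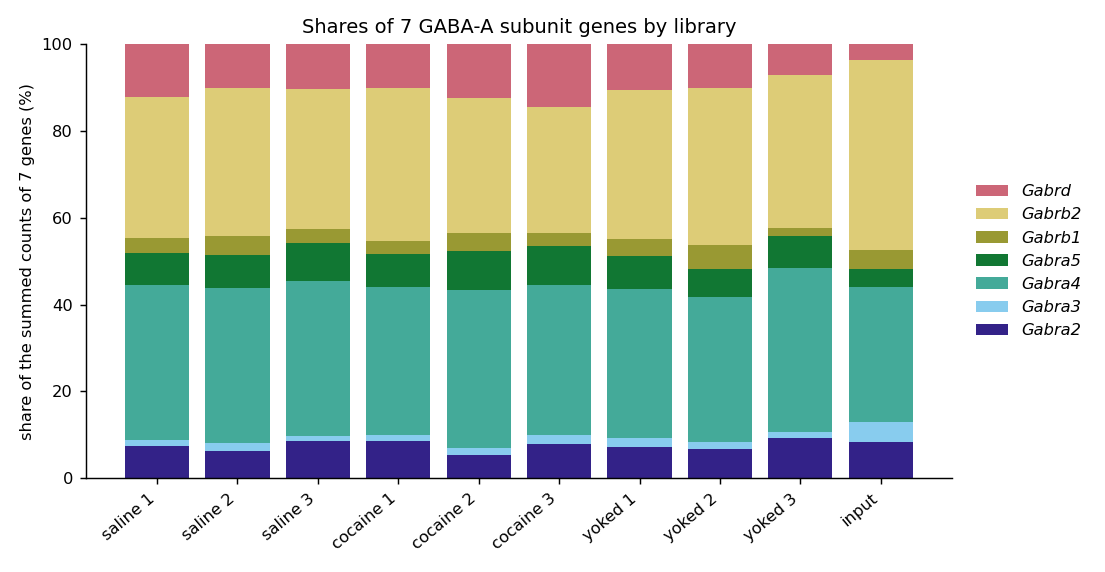
Share of each of the 7 genes in their summed counts (vertical axis, percent) in each pull-down and the input (horizontal axis), with 1 stacked bar for each library. The Gabrd and Gabra5 segments are wider and the Gabrb2 and Gabra3 segments narrower in every pull-down than in the input, and the bars of the 3 groups overlap.

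Shares were compared between groups with two-sided exact permutation tests, which with 3 libraries against 3 cannot go below p = 0.1. Of 36 tests over 12 shares, 0 separated the groups. The smallest exact p was 0.2, and each Benjamini-Hochberg adjusted p was 1. The widest gap was for Gabrb2, whose share was 31.8% ± 3.09 for cocaine and 35.2% ± 0.98 for yoked (SD, 3 libraries each), with an exact permutation p of 0.2. This gap went from -3.42 to -5.08 percentage points without cocaine 1 and to -2.02 without cocaine 3. Gabrd stood at 12.3% ± 2.14 in cocaine, 10.9% ± 1.13 in saline and 9.31% ± 1.93 in yoked libraries, with an exact permutation p of 0.3 for cocaine against yoked. Without yoked 3 the Gabrd gap of cocaine to yoked fell from 3.0 to 1.90 percentage points, and that of yoked to saline went from -1.57 to -0.47. Without cocaine 3 the gap of cocaine to saline went from 1.43 to 0.37 points and that of cocaine to yoked to 1.95. With all 19 subunit genes as the denominator, the share of Gabra5 did separate cocaine (3.69%) from yoked libraries (3.05%), at the smallest exact permutation p possible, 0.1, before any adjustment. No other share with this denominator separated any groups. The lowest cocaine library, cocaine 1 at 3.23%, lay just above the highest yoked library, yoked 3 at 3.20%.

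The comparison of cocaine with saline self-administration asked whether the drug changed the RNA on these ribosomes. None of the 7 genes passed the test: edgeR's quasi-likelihood test called 0 of 7 at a Benjamini-Hochberg adjusted p under 0.05, and 0% of the 14680 genes tested. At an unadjusted p under 0.05 the counts were 0 of 7 and 417 of 14680. DESeq2 called 0 of the 7 and limma-voom 0. Gabrb1 was the 1 gene of the 7 whose groups did not overlap, and 11.1% of all genes tested did not overlap either.

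Gabrb1 averaged 18.0 ± 0.76 CPM for cocaine and 21.7 ± 1.23 CPM for saline (SD over 3 libraries). Its log2 fold change was -0.21 ± 0.19 (SE), with a 95% interval of -0.61 to 0.19. The edgeR p was 0.280 before adjustment and 0.999 after Benjamini-Hochberg adjustment. The 6 astrocyte markers summed to 128 to 335 CPM in saline and 104 to 245 CPM in cocaine libraries, and their part in the difference was not tested.

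The other 6 genes had log2 fold changes from -0.12 for Gabrb2 to 0.14 for Gabra3. The intervals bound what these libraries could miss. For Gabrd (0.11 ± 0.18, SE) the interval ran from 0.830 to 1.40 times the saline level, for Gabra4 (-0.10 ± 0.22) from 0.673 to 1.3 times, and for Gabra5 (0.04 ± 0.22) from 0.735 to 1.44 times. For Gabra2 (-0.09 ± 0.37) it was wider, from 0.534 to 1.65 times. The median of the 7 was -0.09 and that of all genes tested 0.0036. Long genes were lower in cocaine libraries as a whole: the median log2 fold change was -0.11 in the 1329 genes with the longest genomic spans, which include Gabra3, Gabra5, Gabrb1 and Gabrb2, and 0.16 in the 1328 with the shortest.

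The comparison of cocaine with yoked libraries shares the cocaine libraries with the one before. edgeR's quasi-likelihood test called 0 of 7 genes and 0% of all genes tested. Unadjusted p was under 0.05 for 0 of 7 and for 379 of 14680, and DESeq2 and limma-voom called 0 of the 7. None of the 7 had groups that did not overlap, against 6.47% of all genes tested. Gabrd averaged 66.5 ± 13.6 CPM for cocaine and 54.4 ± 4.87 CPM for yoked (SD over 3 libraries). Its log2 fold change was 0.31 ± 0.18 (SE; 95% interval -0.07 to 0.68), with an edgeR p of 0.103 and 0.974 after Benjamini-Hochberg adjustment. Gabrb2 was at 173 ± 32.5 and 214 ± 65.0 CPM, a log2 fold change of -0.31 ± 0.20 (interval -0.74 to 0.12).

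This comparison moved with yoked 3. Without it, the log2 fold changes of Gabra2, Gabra4 and Gabrb2 turned from -0.29, -0.19 and -0.31 to 0.23, 0.19 and 0.0026. That of Gabra5 went from 0.08 to 0.40 ± 0.17, that of Gabrd from 0.31 to 0.39 ± 0.17 and that of Gabrb1 from -0.18 to -0.36 ± 0.14. The groups of these last 3 genes then did not overlap, as was the case for 20.9% of all genes tested. Their unadjusted edgeR p-values were 0.0325, 0.0444 and 0.0244, and the Benjamini-Hochberg adjusted values 0.727, 0.732 and 0.727. Without cocaine 3 the log2 fold change of Gabrd was 0.094 ± 0.17. Without yoked 2 the log2 fold change of Gabrb1 was 0.0018 and that of Gabra5 -0.11.

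The comparison of yoked with saline libraries shares libraries with both of the others. edgeR's quasi-likelihood test called 0 of 7 genes and 0% of all genes tested, with unadjusted p under 0.05 for 0 of 7 and for 270 of 14680. DESeq2 and limma-voom called 0 of the 7, and 0 of the 7 had groups that did not overlap, against 6.9% of all genes tested. Log2 fold changes ran from -0.20 ± 0.18 (SE) for Gabrd to 0.24 ± 0.24 for Gabra3. Without yoked 3 those of Gabra2, Gabra4 and Gabrb2 turned from 0.19, 0.10 and 0.19 to -0.32, -0.29 and -0.12, and Gabra5 went from -0.04 to -0.36. Gabra4, Gabra5 and Gabrb2 were then lower in both yoked libraries than in all saline libraries, as 18% of all genes tested were separated in 1 direction or the other. With the replicate number as a block, 0 of 7 genes were called in each of the 3 comparisons.

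**Figure D4:**
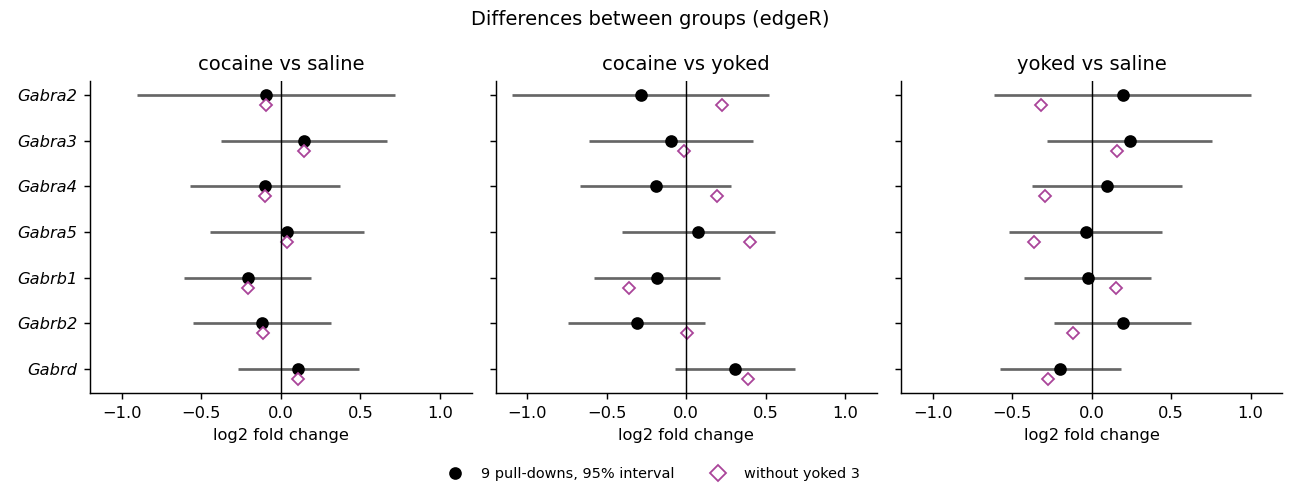
Log2 fold change (horizontal axis) of the 7 genes (vertical axis) in the 3 comparisons, with filled points for the fit on 9 pull-downs, lines for its 95% interval and open diamonds for the fit without yoked 3. Every line crosses 0, and the diamonds move away from the filled points in the 2 comparisons with the yoked group.

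The libraries of a group differed among themselves, and not to the same extent for each subunit. Yoked 3 was above the mean of the 9 pull-downs by 0.91 (log2 of TMM-scaled CPM) for Gabra2, 0.68 for Gabra4, 0.67 for Gabrb2 and 0.48 for Gabra5. In the same library Gabrd was at -0.01 and Gabrb1 at -0.38. The 7 genes summed to 818 CPM there and to 463 to 642 CPM in the other 8. Cocaine 3 was the highest library for Gabrd (0.50) and Gabra3 (0.49), and cocaine 2 the lowest for Gabra2 (-0.74).

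Yoked 2 was the lowest for Gabra4 (-0.35), Gabra5 (-0.50) and Gabrd (-0.33) and the highest for Gabrb1 (0.37). It also held the highest sums of astrocyte and D2 markers, at 629 CPM (104 to 335 in the other 8) and 493 CPM (147 to 353). Oligodendrocyte markers were highest there too, at 767 CPM (154 to 492). Its cholinergic interneuron sum, 30.6 CPM, was below the 89.5 CPM of saline 2. Its cortical glutamatergic sum, 23.8 CPM, was the lowest of any pull-down. Yoked 3 had the highest sum of D1 markers, at 3274 CPM, and the lowest of oligodendrocyte markers. Yet its sum of markers for all medium spiny neurons was the lowest of any pull-down, at 8791 CPM (input 9169 CPM). Its cortical glutamatergic sum was the highest, at 122 CPM (input 36.3 CPM). The part of these differences in the receptor values was not tested. Within groups, the SD on the log2 scale was 0.23 for Gabrb1, 0.24 for Gabrd, 0.30 for Gabrb2, 0.32 for Gabra3, 0.34 for Gabra4 and for Gabra5 and 0.56 for Gabra2, beside a median of 0.27 over all genes.

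**Figure D5:**
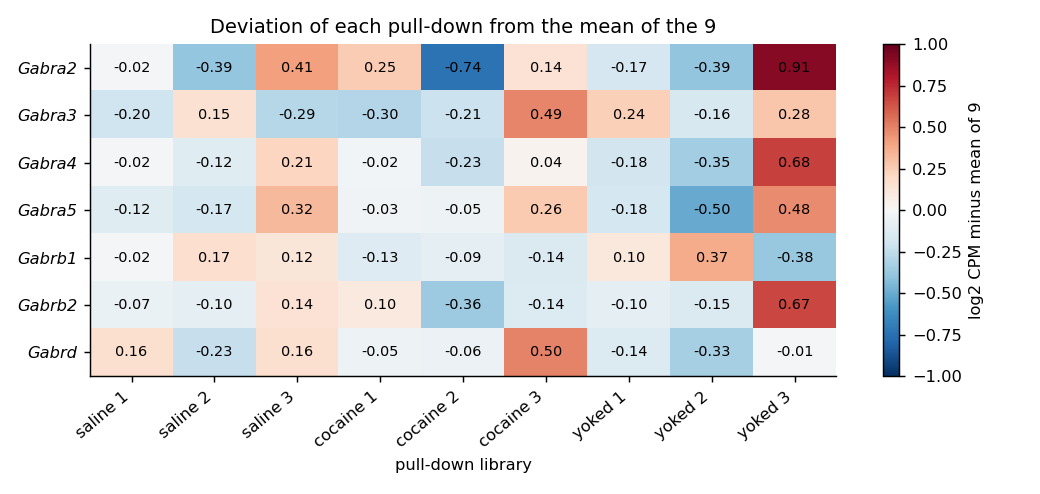
Deviation of each pull-down (horizontal axis) from the mean of the 9, in log2 of TMM-scaled CPM (color and printed value), for the 7 genes (vertical axis). Yoked 3 is 0.48 to 0.91 above the mean for Gabra2, Gabra4, Gabra5 and Gabrb2 but at -0.01 for Gabrd and -0.38 for Gabrb1.

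For each gene the 3 genes with the most similar pattern over the 9 pull-downs were taken from 11895 genes, by Pearson's r of log2(CPM + 0.5), as a description with no test. All values share library depth and the same 9 libraries. Gabra2 was closest to Pcdh7 (r = 0.993), Ano3 (0.980) and Acvr1b (0.980), Gabra4 to Spcs3 (0.991), Ugcg (0.984) and Fut8 (0.983), and Gabrb2 to Ythdf3 (0.985), Cdh8 (0.983) and Cadm2 (0.98). Gabra5 was closest to Tspan5 (0.971), Tmem165 (0.949) and Nt5c3 (0.937), and Gabrb1 to Zbtb7a, Crkl and Nos1ap (0.973 each). The likeness was lower for Gabrd, with Fam134a (0.921), Thy1 (0.915) and 2010111I01Rik (0.914), and for Gabra3, with Tmed3 (0.897), Fancc (0.889) and Gramd4 (0.875). Without the 2 libraries farthest from each gene's median, r stayed at 0.766 or above for 20 of these 21 pairs and was 0.679 for 2010111I01Rik.

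Partner subunits and the proteins that anchor and move the receptor were read from the same fits. Of the 12 other subunit genes 6 were tested and 0 called in any comparison, with an unadjusted p under 0.05 for 0. Of 19 anchoring and trafficking genes, all tested, 0 were called, and 1 had an unadjusted p under 0.05. That gene was Gabarap, whose protein binds the receptor and serves in its transport. It averaged 259 ± 28.8 CPM for cocaine and 194 ± 38.3 CPM for saline (SD over 3 libraries). Its log2 fold change was 0.47 ± 0.16 (SE), with an edgeR p of 0.00924 and 0.999 after Benjamini-Hochberg adjustment. The next smallest p-values were for Lhfpl4, a synaptic partner of the receptor (-0.28 ± 0.14, cocaine against saline), Shisa7, an auxiliary subunit (-0.35 ± 0.19, cocaine against saline), and Rdx, which anchors alpha5 receptors to actin (0.33 ± 0.19, yoked against saline), and none passed adjustment. The median over the 19 genes was -0.09 for cocaine against saline, beside 0.0036 for all genes tested. Against the input, 7 of the 19 were above it and 5 below it in all 9 pull-downs, near the 34% and 28.5% of all genes compared.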

How the data were processed

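RNA of 9 TRAP pull-downs (3 each for saline, cocaine and yoked) and 1 input was described by deposited read counts, whole numbers for each gene symbol. The tools STAR 2.0.0e and HTSeq and the build mm10 are listed, per the submitters' processing notes. Not given in the sources used here are the annotation, strand setting and counting mode. The 6 rows naming no gene were left out. Such reads in no annotated gene were 12.3% to 16.1% of the pull-downs and 27.6% of the input. Depth was 12.5 to 45.2 times 1e+06 gene counts, so that 3 counts, a floor for counting error only, equal 0.0663 to 0.239 CPM. Replicate counts differed by more than sampling noise, so none was merged.

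Groups were compared with edgeR 4.0.16 in R 4.3.3 (TMM, expression filter, robust quasi-likelihood test, group as the only term, Benjamini-Hochberg over 14680 genes), checked on simulated data. DESeq2 1.42.0 and limma 3.58.1 were alternatives, with other scalings, filters, fits and each library left out. Ratios to the input used CPM + 0.5. Shares are of plain counts, as no transcript lengths were used. The text names the 7 genes, other subunits with a mean of at least 50 counts, up to 4 anchoring genes by smallest p, and the 3 most similar genes each; some items are not reported here. Members and lists were chosen with earlier results of these data known.

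Whether replicate numbers pair libraries was checked by the correlation of deviations over 11895 genes. For yoked and saline, same-numbered libraries correlated at 0.119 to 0.294, and 3 of 3 yoked libraries correlated best with their own number. For cocaine and saline the range was 0.058 to 0.356, also with 3 of 3 cocaine libraries. For cocaine and yoked it was -0.065 to 0.256, with 2 of 3. Pairing was not settled by these values. The main fits used group as the only term, and the replicate number as a block was an alternative. Labels name no shared animal or day.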

Additional observations from a re-analysis of the deposited data

How the results depend on the processing

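No gene of the 7 was called in 315 fits of single genes under the alternatives. Of these, 5 had an unadjusted p under 0.05, each without yoked 2 or yoked 3, and the smallest Benjamini-Hochberg adjusted p was 0.727. With the replicate block, 1 gene (Gh) was called instead of 0 in each of the 3 comparisons, and 0 of the 7. For cocaine against saline, 1 gene (AK155692) was called by DESeq2 and in the fit of only the 2 groups compared. Leaving out libraries gave 0 to 1 calls for cocaine against saline and for yoked against saline, the 1 being AK155692 without yoked 3. Both names were chosen after their values were seen, and the cause was not tested. Scaling by TMM over 10 libraries left 1 of the 7 genes below the input in all 9 pull-downs instead of 2. With all 19 subunits as the denominator, the share of Gabra4 in cocaine against yoked turned to 0.142 percentage points and that of Gabrb1 in yoked against saline to -0.0027. The planned level order and shares per kilobase were not run, as no transcript lengths were used. The lowest count of the 7 genes in a pull-down was 127, in saline 2, the shallowest library. Directions that turned when 1 library was left out follow.

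Log2 fold changes of cocaine against saline ranged, for Gabra2, from -0.27 without cocaine 1 to 0.16 without cocaine 2, and for Gabra3 from -0.15 without cocaine 3 to 0.29 without cocaine 1. For Gabra4 they ranged from -0.17 without saline 2 to 0.0023 without saline 3, and for Gabra5 from -0.076 without cocaine 3 to 0.21 without saline 3. For Gabrd they ranged from -0.10 without cocaine 3 to 0.21 without cocaine 2. Log2 fold changes of cocaine against yoked ranged, for Gabra2, from -0.51 without yoked 2 to 0.23 without yoked 3, and for Gabra3 from -0.39 without cocaine 3 to 0.046 without cocaine 1. For Gabra4 they ranged from -0.37 without yoked 2 to 0.19 without yoked 3, and for Gabra5 from -0.11 without yoked 2 to 0.40 without yoked 3. For Gabrb1 they ranged from -0.36 without yoked 3 to 0.0018 without yoked 2, and for Gabrb2 from -0.45 without yoked 2 to 0.0026 without yoked 3. Log2 fold changes of yoked against saline ranged, for Gabra2, from -0.32 without yoked 3 to 0.43 without saline 3, and for Gabra4 from -0.29 without yoked 3 to 0.27 without yoked 2. For Gabra5 they ranged from -0.36 without yoked 3 to 0.15 without yoked 2, and for Gabrb1 from -0.21 without yoked 2 to 0.16 without yoked 3. For Gabrb2 they ranged from -0.12 without yoked 3 to 0.33 without yoked 2. Differences in share (percentage points) of cocaine against saline ranged, for Gabra2 of the 7, from -0.847 without cocaine 1 to 0.814 without cocaine 2, and for Gabra3 of the 7 from -0.0341 without cocaine 3 to 0.40 without saline 2. For Gabrb2 of the 7 they ranged from -2.83 without cocaine 1 to 0.219 without cocaine 3, and for Gabra2 of the 4 alphas from -1.74 without cocaine 1 to 1.56 without cocaine 2. For Gabra3 of the 4 alphas they ranged from -0.0583 without cocaine 3 to 0.764 without saline 2, and for Gabrb1 of Gabrb1 and Gabrb2 from -1.27 without cocaine 2 to 0.237 without cocaine 1. Differences in share (percentage points) of cocaine against yoked ranged, for Gabra2 of the 7, from -1.18 without cocaine 1 to 0.478 without cocaine 2, and for Gabra3 of the 7 from -0.215 without cocaine 3 to 0.204 without cocaine 1. For Gabra4 of the 7 they ranged from -1.01 without yoked 2 to 1.31 without yoked 3, and for Gabrb1 of the 7 from -1.39 without yoked 3 to 0.420 without yoked 2. For Gabra2 of the 4 alphas they ranged from -2.55 without cocaine 1 to 0.751 without cocaine 2, and for Gabra3 of the 4 alphas from -0.562 without yoked 3 to 0.278 without yoked 1. For Gabrb1 of Gabrb1 and Gabrb2 they ranged from -2.27 without yoked 3 to 1.84 without yoked 2. Differences in share (percentage points) of yoked against saline ranged, for Gabra2 of the 7, from -0.434 without yoked 3 to 0.926 without saline 3, and for Gabra3 of the 7 from -0.00377 without yoked 1 to 0.398 without saline 2. For Gabra4 of the 7 they ranged from -1.95 without yoked 3 to 0.372 without yoked 2, and for Gabrb1 of the 7 from -0.760 without yoked 2 to 1.05 without yoked 3. For Gabra2 of the 4 alphas they ranged from -0.216 without saline 2 to 1.70 without saline 3, and for Gabra4 of the 4 alphas from -1.10 without saline 3 to 0.506 without saline 2. For Gabrb1 of Gabrb1 and Gabrb2 they ranged from -2.31 without yoked 2 to 1.80 without yoked 3.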
